A study of Mus musculus with 20 samples.

Results

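HuR, the product of ELAVL1, binds AU-rich and U-rich stretches in the 3′ untranslated regions (UTRs) of mRNAs, and it is known mainly as a protein that slows their decay or promotes their translation. The mRNAs described here are 8 long-known targets of HuR, most of them established in cultured cell lines: CCND1, CDKN1A, MDM2, XIAP, BCL2, HIF1A, VEGFA and SIRT1. They encode proteins of the cell cycle, protein ubiquitination, cell survival, the response to low oxygen, vessel growth and protein deacetylation. The members were chosen by gene symbol, ignoring case, and all 8 were found in both tables, among 60607 human genes in humanized mouse livers and 55335 mouse genes in wild type (WT) mouse livers.

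RNA-seq was made from 20 livers. The WT mice were male C57BL/6, bought at 8 weeks of age and acclimatized before the experiment. Of the WT mice, 6 received adenovirus carrying an shRNA against mouse HuR (WT HuR KD) and 6 a control virus (WT LacZ). The humanized mice were TK-NOG mice, which lack a working immune system and express a viral thymidine kinase in liver from a mouse albumin promoter. They were given ganciclovir at 8 to 9 weeks of age to remove mouse hepatocytes, received primary human hepatocytes 1 week later, and were used if their serum human albumin, tested after a further 8 to 12 weeks, exceeded 0.5 mg/ml. Of these, 4 received adenovirus with an shRNA against human HuR (Humanized HuR KD) and 4 the control virus (Humanized LacZ). All mice received 2000000000 plaque-forming units intravenously, and livers were taken on day 7 after a 4 h fast. Both knockdown and control livers therefore carried adenovirus, and the shRNA differed between human and mouse.

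The human table holds human genes only, so it reports on the transplanted cells and not on the mouse cells that remain in these chimeric livers. Levels are in TPM, which correct for gene length and sum to 1000000 in each library. The reads on genes, recovered from the spacing of the TPM values, ran from 2670469 to 20302454 in humanized and from 12960373 to 44668272 in WT mouse livers, except 1423985 in WT LacZ replicate 2. In humanized mouse livers the hepatocyte markers summed to 42380 to 70880 TPM with HuR KD and 45440 to 92720 TPM with LacZ. In WT mouse livers, where 7 of the 9 markers were in the table, they summed to 79140 to 88490 and 74780 to 90840 TPM. At an unadjusted limma p under 0.05, 1 of 9 was higher with HuR KD in humanized mouse livers, against 3.6% of all genes tested. In WT mouse livers 1 of 7 was lower, against 6.94%. The profiles of Humanized HuR KD replicate 4 and Humanized LacZ replicate 2, which lie in opposite groups, were more alike (r = 0.965 of log2(TPM + 1) over genes) than any other humanized pair (0.866 to 0.931). In these livers 51.8% and 51.7% of the TPM came from mitochondrial genes, against 29.0% to 38.5% in the other 6. They also had the most reads on genes of the humanized set, 20302454 and 19891555, against 2670469 to 8342241 in the other 6. What part depth has in their likeness was not tested. Among WT mouse livers, WT LacZ replicate 2 (0.908 to 0.929) and WT HuR KD replicate 6 (0.952 to 0.961 with the rest) stood apart from the others (0.977 to 0.990). Members and named genes whose call changed without both such livers of a set are given with and without them. Counts over lists of genes are of all livers unless noted.

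The annotated mouse 3′ UTRs of all 8 mRNAs held the AU-rich pentamer AUUUA, written ATTTA in the transcript sequence, that AU-rich elements are built from. A window of 30 bases from each 3′ UTR shows where the pentamers lie closest together, or 1 of them where they lie far apart. The sequences are of the sense strand, 5′ to 3′, from GENCODE M21 on GRCm38, with ATTTA in capitals and T for U.
Ccnd1, chr7:144931344-144931373, minus strand: ttttaaacactaaaatgtctaATTTAtact
Cdkn1a, chr17:29099477-29099506, plus strand: tcttaattattatttgtgttttaATTTAaa
Mdm2, chr10:117689814-117689843, minus strand: tgttaataataagaacATTTAATTTATTTA
Xiap, chrX:42105460-42105489, plus strand: ATTTActtggaATTTAttggagttataaat
Bcl2, chr1:106543003-106543032, minus strand: tATTTAggaaaaaaaagATTTATTTATTTA
Hif1a, chr12:73945998-73946027, plus strand: ATTTAaaatgcacctttttATTTATTTAtt
Vegfa, chr17:46017178-46017207, minus strand: ttaattttaatatttgttatcATTTATTTA
Sirt1, chr10:63319423-63319452, minus strand: ATTTAaatattcatgtgggtttagtATTTA

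The windows of Mdm2, Bcl2, Hif1a and Vegfa hold overlapping pentamers, whereas those of Ccnd1 and Cdkn1a hold 1. Per 1000 bases of 3′ UTR, Mdm2 had the most pentamers (8 in 1335 bases, 5.99 per 1000), followed by Vegfa (9 in 1865, 4.83), Hif1a (8 in 1827, 4.38) and Sirt1 (7 in 1631, 4.29). Xiap had 16 in 4672 bases (3.42), Cdkn1a had 4 in 1334 (3.0) and Bcl2 had 15 in 5086 (2.95). The lowest density was that of Ccnd1 (5 in 2676, 1.87). All 8 lay above the median of 1.32 per 1000 bases over 11244 protein-coding genes tested in WT mouse livers, of which 69.4% held at least 1 pentamer. The longer element TTATTTATT was found in Mdm2 (1), Vegfa (1), Bcl2 (2) and Hif1a (2), and in 7.75% of those genes. It overlaps the pentamer, so these counts are not separate. Runs of TTTTTTT, overlapping matches counted, were present in 6 members, with 7 in Bcl2, 6 in Hif1a, 4 in Ccnd1, 3 in Vegfa, 2 in Mdm2 and 1 in Xiap, and in 43.8% of the genes. Only the sense strand was searched. A match describes the sequence and does not show that HuR binds there.

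**Figure D1:**
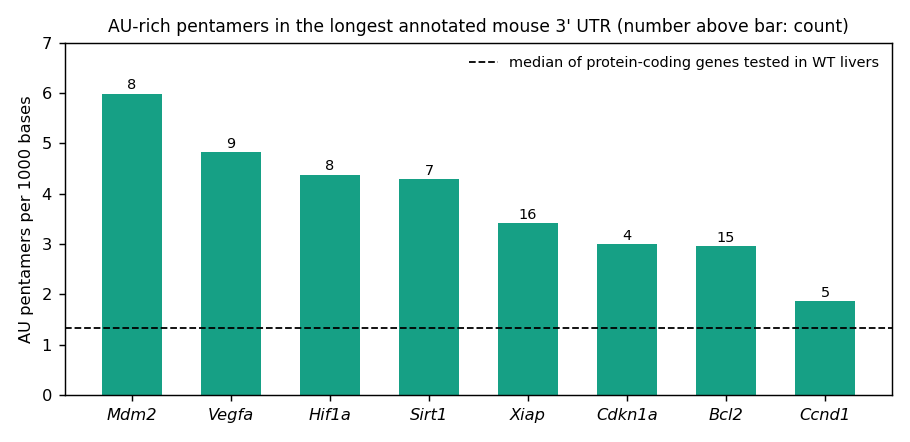
AU-rich pentamers per 1000 bases of the longest annotated 3′ UTR of each mouse gene, with the count above each bar. The dashed line is the median of 1.32 over 11244 protein-coding genes, and the bars run from 1.87 for Ccnd1 to 5.99 for Mdm2.

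HuR mRNA was lower in every knockdown liver than in every control liver of its set. In humanized mouse livers ELAVL1 (ENSG00000066044.15) was 3.46 ± 0.763 TPM with HuR KD and 5.67 ± 0.623 TPM with LacZ (SD, n = 4 each), which is 61.0% of control. Mouse Elavl1 (ENSMUSG00000040028.10) was 4.91 ± 0.694 TPM and 9.498 ± 0.789 TPM (SD, n = 6 each), or 51.7% of control. The limma log2 fold changes were −0.59 (adjusted p = 0.214) and −0.83 (adjusted p = 0.00105).

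The members were expressed at different levels in the control livers of each set. In Humanized LacZ livers the order by mean TPM was CCND1 (45.5), CDKN1A (26.5), MDM2 (17.2), HIF1A (11.8), XIAP (9.47), VEGFA (8.48), SIRT1 (4.68) and BCL2 (0.739). The ranges of the livers overlapped between CCND1 and CDKN1A, CDKN1A and MDM2, and XIAP and VEGFA, and the other neighbours were apart. In WT LacZ livers the order was Vegfa (63.1), Xiap (40.3), Hif1a (33.3), Mdm2 (22.1), Sirt1 (8.48), Ccnd1 (8.01), Cdkn1a (5.98) and Bcl2 (1.00). Here Xiap overlapped Hif1a, Sirt1 overlapped Ccnd1, and Ccnd1 overlapped Cdkn1a. CCND1 thus stood above 93.2% of the tested genes in humanized and Ccnd1 above 48.7% in WT mouse livers, although the tables were normalized separately.

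**Figure D2:**
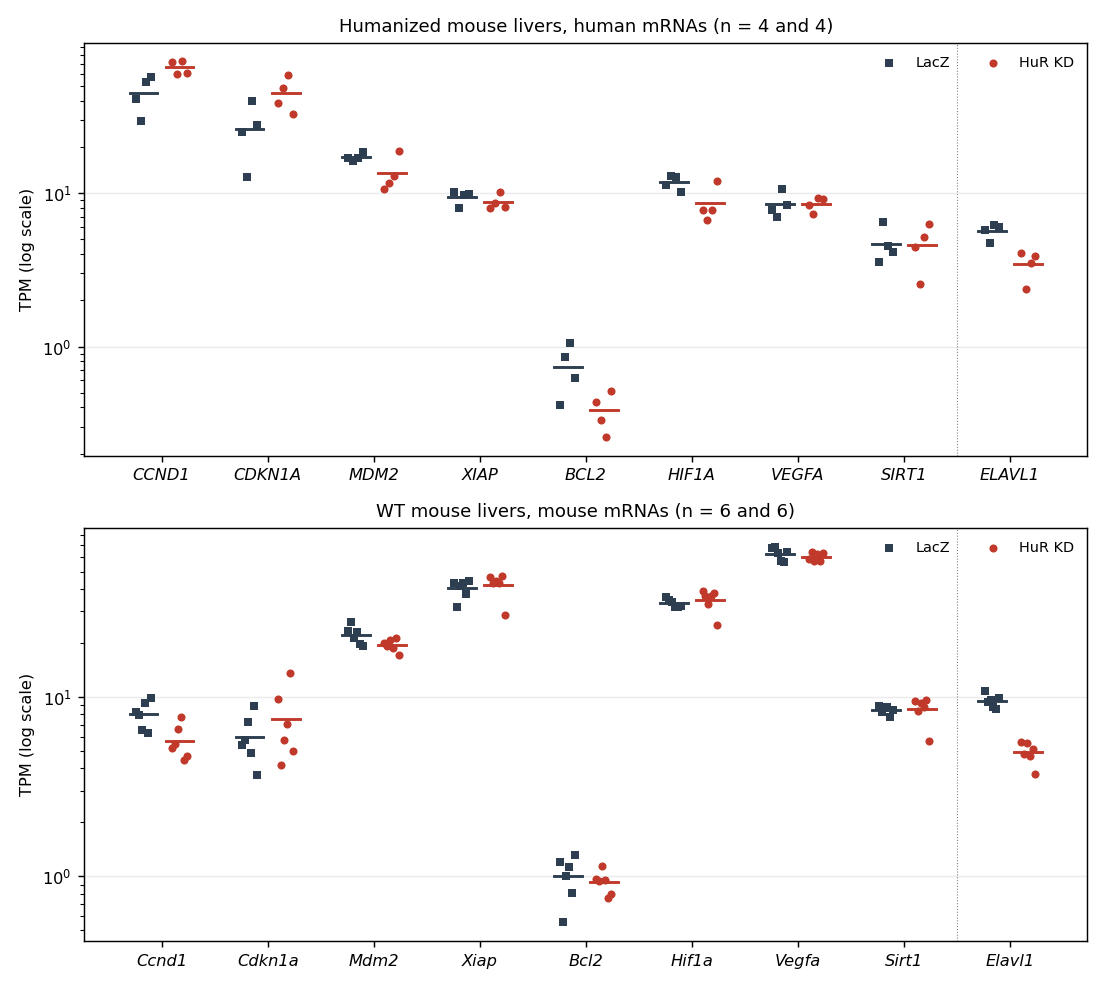
TPM of each mRNA and of HuR (right of the dotted line) in every liver, on log axes, for humanized mouse livers above and WT mouse livers below. Squares are LacZ livers, circles HuR KD livers and lines group means. HuR is lower in all knockdown livers of both sets, whereas most members overlap between groups.

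The comparison of HuR KD with LacZ asks whether the mRNA levels of these targets depend on HuR in human and mouse liver cells. A gene was tested if its mean TPM over a set was at least 1, which 7 members passed in each set, BCL2 being below it in both. In humanized mouse livers 3 of the 7 members had an unadjusted limma p under 0.05, compared with 11.5% of all 12738 genes tested. Of these, CCND1 and CDKN1A were higher with HuR KD (2 of 7, against 3.6% of all genes) and HIF1A was lower (1 of 7, against 7.87%). In WT mouse livers 1 of 7 members, Ccnd1, passed and was lower, compared with 16% of the 15090 genes in either direction and 6.94% lower (9.09% were higher). The groups of 0 of the 7 were free of overlap there, against 2.49% of all genes. After Benjamini-Hochberg adjustment over all genes, 0 members passed in either set with limma (3 and 1 at the unadjusted threshold), as with voom on the recovered reads, against 0.212% and 0.888% of all genes with limma. Of the genes called, 31.3% were higher in humanized and 56.7% in WT mouse livers. That split depended on the scaling, since it was 47.5% and 48% with median-of-ratios factors.

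Among the cell cycle members, human CCND1 was higher and mouse Ccnd1 lower with HuR KD. CCND1 encodes cyclin D1, which activates CDK4 and CDK6 in G1. CCND1 (ENSG00000110092.3) was 72.5, 59.9, 72.7 and 60.9 TPM in the Humanized HuR KD livers and 41.2, 29.8, 53.5 and 57.5 TPM in the Humanized LacZ livers. All 4 knockdown livers lay above all 4 controls, as 2.13% of all genes did, and CCND1 was the only member whose groups did not overlap in humanized mouse livers (1 of 7, against 7.16% in either direction). The means were 66.5 ± 7.05 and 45.5 ± 12.6 TPM (SD, n = 4 each), a 1.46-fold difference, with a log2 fold change of 0.58 (standard error 0.21, limma adjusted p = 0.327). The exact two-sided permutation test gave p = 0.0286, the smallest that 70 groupings allow. Reads on CCND1 ran from 453 to 3261 per liver, so its level did not rest on few counts. With both of the alike livers left out (Humanized LacZ replicate 2 and Humanized HuR KD replicate 4) the log2 fold change was 0.43 (limma adjusted p = 0.286), and with mitochondrial genes left out of the TPM it was 0.60 (adjusted p = 0.496), and CCND1 stayed under the unadjusted threshold in both. It no longer passed without HuR KD replicate 1 (log2 fold change 0.53), HuR KD replicate 3 (0.53) or LacZ replicate 1 (0.54).

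Mouse Ccnd1 (ENSMUSG00000070348.5, chr7:144929931-144939925 of GRCm38) ran from 4.48 through a median of 5.33 to 7.75 TPM in the WT HuR KD livers and from 6.28 through 8.06 to 9.84 TPM in the WT LacZ livers. All 6 knockdown livers lay below the control mean, and 4 of them below every control liver, but the groups overlapped. The means were 5.70 ± 1.25 and 8.01 ± 1.44 TPM (SD, n = 6 each), or 71.2% of control, with a log2 fold change of −0.43 (standard error 0.13, limma adjusted p = 0.143, exact permutation p = 0.0195). Reads were 22 in WT LacZ replicate 2 and at least 118 in each knockdown liver. Ccnd1 stayed under an unadjusted p of 0.05 in each fit that left out 1 liver, with log2 fold changes from −0.51 to −0.37, and without WT LacZ replicate 2 and WT HuR KD replicate 6 together (−0.39, adjusted p = 0.149).

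The genes most like Ccnd1 across the 12 WT mouse livers were Arhgdib (r = 0.925), Cd53 (0.914) and Ifi209 (0.905) among 11326 protein-coding genes. Arhgdib and Cd53 are genes of leukocytes. Arhgdib was 12.9 ± 1.59 TPM with HuR KD and 16.4 ± 1.80 TPM with LacZ. Since Arhgdib was picked by its correlation with Ccnd1 over both groups, this difference follows in part from that choice. In the same livers the Kupffer cell and macrophage markers summed to 446 to 748 TPM with HuR KD and 624 to 850 TPM with LacZ, and 5 of the 9 were called lower, against 6.94% of all genes. T and NK cell markers summed to 6.97 to 13.5 TPM and 10.3 to 20.3 TPM, with 1 of 5 tested called lower. Endothelial markers summed to 181 to 225 TPM and 178 to 226 TPM, with 1 of 9 called higher, against 9.09% of all genes. Stellate cell markers summed to 52.4 to 66.6 and 53.03 to 72.1 TPM, with 2 of 7 called lower, and cholangiocyte markers to 31.9 to 44.9 and 25.6 to 48.4 TPM, with 0 of 2 tested called by limma. In whole liver, fewer cells of a type and less RNA per cell cannot be told apart, and the part of these cells in the Ccnd1 result was not tested. In humanized mouse livers the Kupffer cell markers, counted in human genes, summed to at most 1.24 TPM with C1QA, C1QB, CLEC4F, MARCO and VSIG4 at 0, and endothelial markers to at most 1.25 TPM. Human cholangiocyte markers summed to 6.02 to 29.4 TPM with HuR KD and 12.9 to 45.5 TPM with LacZ. Of them 2 of 4 tested were called lower, against 7.87% of all genes in humanized mouse livers. The part of these markers in the CCND1 result was not tested. The human stellate markers summed to 3.70 to 8.51 and 6.14 to 9.05 TPM with 1 of 3 called lower and DES at 0, and T and NK cell markers to at most 4.89 TPM with 5 of 7 at 0. Across the 8 humanized mouse livers the genes that varied most closely with CCND1 included TFR2 (0.969) and RRM2 (0.966), among 9925 protein-coding genes. These correlations are over all livers of both groups and describe shared levels only.

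**Figure D3:**
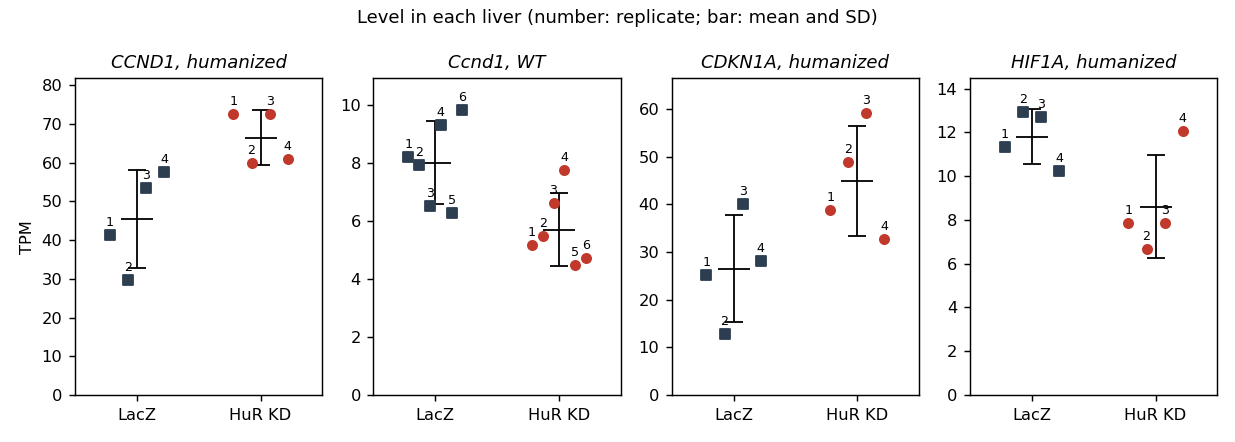
TPM of CCND1, CDKN1A and HIF1A in humanized and of Ccnd1 in WT mouse livers, with the replicate number at each point and the mean and SD in black. For CCND1 the lowest knockdown liver (59.9 TPM) is above the highest control (57.5 TPM), whereas mouse Ccnd1 is lower with knockdown and the groups overlap.

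CDKN1A encodes p21, an inhibitor of cyclin-dependent kinases. CDKN1A (ENSG00000124762.13) was 38.9, 48.9, 59.2 and 32.8 TPM in the Humanized HuR KD livers and 25.2, 12.7, 40.0 and 28.1 TPM in the Humanized LacZ livers. Every knockdown liver lay above the control mean, but 2 were below LacZ replicate 3, so the groups overlapped. The means were 44.9 ± 11.6 and 26.5 ± 11.2 TPM (SD, n = 4 each), a 1.69-fold difference, with a log2 fold change of 0.81 (standard error 0.32, limma adjusted p = 0.376), and the exact permutation test gave p = 0.0857. CDKN1A no longer passed the unadjusted threshold without HuR KD replicate 2 (log2 fold change 0.76) or 3 (0.67), or LacZ replicate 1 (0.82) or 2 (0.51). It passed without both alike livers (0.65, adjusted p = 0.219). Mouse Cdkn1a (ENSMUSG00000023067.14) ran from 4.19 through a median of 6.43 to 13.5 TPM with HuR KD and from 3.68 through 5.56 to 8.96 TPM with LacZ. The log2 fold change was 0.24 (95% interval −0.30 to 0.78, limma adjusted p = 0.692), and 3 of 6 knockdown livers were above the control mean.

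MDM2 encodes a ubiquitin ligase, and it did not pass the test in either set with all livers. MDM2 (ENSG00000135679.25) was 10.6, 11.7, 12.955 and 18.8 TPM with HuR KD and 16.9, 16.3, 17.1 and 18.6 TPM with LacZ. The first 3 knockdown livers lay below every control, and HuR KD replicate 4, one of the alike livers, lay above them all. The log2 fold change was −0.36 (limma adjusted p = 0.486) in all livers and −0.52 (adjusted p = 0.172) without HuR KD replicate 4. Without both alike livers it was −0.54 (adjusted p = 0.135), and MDM2 then passed the unadjusted threshold, as it did without HuR KD replicate 4 alone. Mdm2 (ENSMUSG00000020184.15) ran from 17.1 through 19.6 to 21.2 TPM with HuR KD and from 19.2 through 22.1 to 26.02 TPM with LacZ, a log2 fold change of −0.17 (95% interval −0.34 to 0.007, limma adjusted p = 0.335). All 6 knockdown livers lay below the control mean, and Mdm2 passed the unadjusted threshold with median-of-ratios factors (−0.18) and without WT HuR KD replicate 5 (−0.19), WT LacZ replicate 5 (−0.20) or 6 (−0.20), but not without WT LacZ replicate 2 and WT HuR KD replicate 6 (−0.08).

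Of the members that protect cells from apoptosis, XIAP inhibits caspases and BCL2 guards the mitochondrial outer membrane. XIAP (ENSG00000101966.12) was 8.03 to 10.2 TPM with HuR KD and 7.97 to 10.2 TPM with LacZ in humanized mouse livers, a log2 fold change of −0.10 (95% interval −0.41 to 0.21, limma adjusted p = 0.836). Xiap (ENSMUSG00000025860.15) ran from 28.6 through 43.7 to 47.3 TPM with HuR KD and from 31.7 through 42.2 to 44.6 TPM with LacZ, a log2 fold change of 0.05 (95% interval −0.21 to 0.32, limma adjusted p = 0.875). The lowest liver of each WT group was the one that stood apart, WT HuR KD replicate 6 and WT LacZ replicate 2.

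BCL2 (ENSG00000171791.13) was 0.436, 0.329, 0.257 and 0.513 TPM with HuR KD and 0.415, 0.859, 1.06 and 0.625 TPM with LacZ. All 4 knockdown livers lay below the control mean, and the groups overlapped only through LacZ replicate 1, which was below 2 knockdown livers. The means were 0.384 ± 0.113 and 0.739 ± 0.279 TPM (SD, n = 4 each), or 52.0% of control, and the exact permutation test gave p = 0.0857. With no filter on low values the log2 fold change was −0.32 (limma adjusted p = 0.730) on the log2(TPM + 1) scale, which understates the change of so low a gene, and −0.86 with voom on the recovered reads, where BCL2 passed the unadjusted threshold (adjusted p = 0.558). It rested on 8 to 111 reads per liver. Mouse Bcl2 (ENSMUSG00000057329.7) ran from 0.759 through 0.948 to 1.14 TPM with HuR KD and from 0.556 through 1.07 to 1.31 TPM with LacZ (3 to 157 reads), with a log2 fold change of −0.04 without the filter (limma adjusted p = 0.894).

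HIF1A encodes the oxygen-regulated subunit of HIF-1, and VEGFA the growth factor of vessels that HIF-1 induces. HIF1A (ENSG00000100644.17) was 7.84, 6.68, 7.84 and 12.0 TPM with HuR KD and 11.3, 12.9, 12.7 and 10.2 TPM with LacZ in humanized mouse livers. The first 3 knockdown livers lay below every control, and HuR KD replicate 4 lay within the control range. The means were 8.60 ± 2.36 and 11.8 ± 1.26 TPM (SD, n = 4 each), or 72.9% of control, with a log2 fold change of −0.44 (standard error 0.18, limma adjusted p = 0.398, exact permutation p = 0.0857). Without both alike livers the log2 fold change was −0.55 (adjusted p = 0.149). HIF1A no longer passed the unadjusted threshold without any 1 of HuR KD replicates 1 to 3 or LacZ replicates 1 to 3 (log2 fold changes from −0.45 to −0.34). It also lost the call with median-of-ratios factors (−0.37), quantile normalization (−0.37), voom (−0.37, with or without the filter) and a replicate block (−0.44). The same held with mitochondrial genes left out of the TPM (−0.43) and with TPM of protein-coding genes alone (−0.39). Hif1a (ENSMUSG00000021109.13) ran from 25.2 through 36.7 to 39.0 TPM with HuR KD and from 31.6 through 33.1 to 35.9 TPM with LacZ, a log2 fold change of 0.05 (95% interval −0.16 to 0.25, limma adjusted p = 0.859). Among the WT livers 4 with knockdown were above every control and WT HuR KD replicate 6 below every control, and without that liver the log2 fold change was 0.13 and passed the unadjusted threshold (adjusted p = 0.213), as it did without WT LacZ replicate 2 as well (0.14).

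VEGFA (ENSG00000112715.22) was 8.35, 7.39, 9.29 and 9.14 TPM with HuR KD and 7.80, 7.02, 10.6 and 8.45 TPM with LacZ, and the groups overlapped throughout. The log2 fold change was 0.02 (95% interval −0.33 to 0.36, limma adjusted p = 0.981). Vegfa (ENSMUSG00000023951.17), the member with the highest level in WT mouse livers, ran from 57.1 through 61.1 to 64.1 TPM with HuR KD and from 56.4 through 64.2 to 68.9 TPM with LacZ, a log2 fold change of −0.05 (95% interval −0.19 to 0.08, limma adjusted p = 0.746). That interval held a fall of at most 0.19 and a rise of at most 0.085. Reads were 1449 or more in each knockdown liver but 174 in WT LacZ replicate 2, the highest control.

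SIRT1 encodes an NAD-dependent deacetylase that acts on metabolic regulators in liver. SIRT1 (ENSG00000096717.12) was 4.50, 2.55, 5.16 and 6.32 TPM with HuR KD and 3.55, 6.46, 4.56 and 4.16 TPM with LacZ. HuR KD replicate 2 was below every control and the groups otherwise overlapped, with a log2 fold change of −0.04 (95% interval −0.59 to 0.52, limma adjusted p = 0.978). Sirt1 (ENSMUSG00000020063.16) ran from 5.67 through 9.01 to 9.64 TPM with HuR KD and from 7.73 through 8.59 to 8.93 TPM with LacZ, a log2 fold change of −0.01 (95% interval −0.24 to 0.22, limma adjusted p = 0.974). The sign of this value changed with the scaling in humanized mouse livers and with voom in both sets, so no direction is given.

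**Figure D4:**
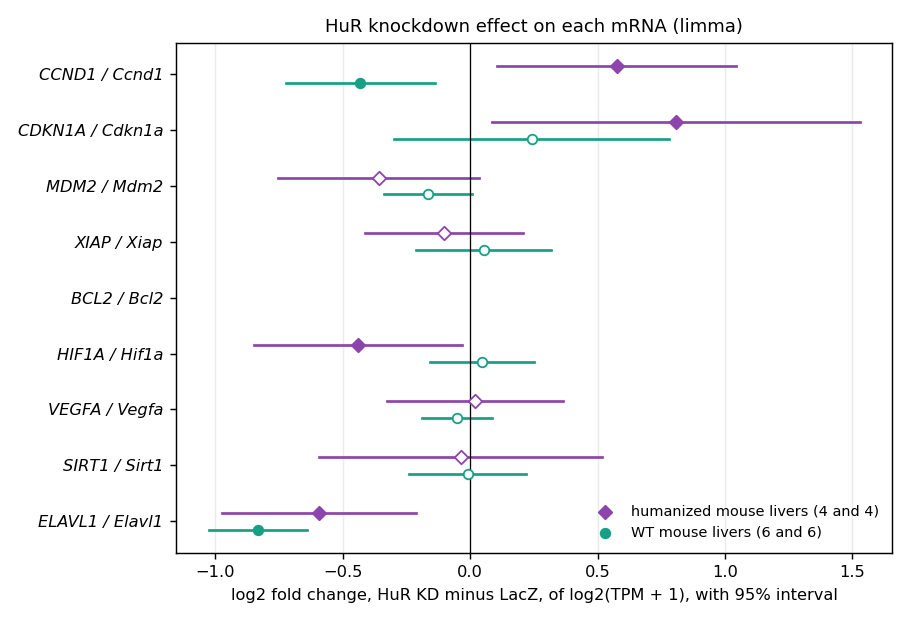
Log2 fold changes of HuR KD against LacZ with 95% intervals from limma, for humanized (diamonds) and WT mouse livers (circles), with filled symbols for an unadjusted p under 0.05. CCND1 lies at 0.58 for humanized and Ccnd1 at −0.43 for WT mouse livers, whereas the BCL2 row is empty since its mean TPM was below 1 in both sets.

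The difference of the knockdown effect between the sets was tested as the interaction term of a joint limma fit over 8203 pairs of genes with the same symbol. CCND1 differed by 1.01 on the log2 scale, humanized minus WT (95% interval 0.517 to 1.495, limma adjusted p = 0.0149). It was the only member of 7 with an adjusted p under 0.05, against 5.01% of the pairs, and 2 of 7 had an unadjusted p under 0.05, against 19.7%. For CCND1 the adjusted p lay between 0.0103 and 0.0339 when any 1 of the 20 livers was left out. It was 0.0160 without both alike humanized livers and 0.0258 without WT LacZ replicate 2 and WT HuR KD replicate 6. HIF1A differed by −0.48 (95% interval −0.87 to −0.10, limma adjusted p = 0.143), with an adjusted p of 0.0193 without Humanized HuR KD replicate 4, 0.0242 without both alike livers, 0.0401 without WT HuR KD replicate 6 and 0.0463 without that liver and WT LacZ replicate 2. In 18 of the 20 fits that left out 1 liver the HIF1A difference did not pass (limma adjusted p up to 0.286). It did not pass in 4 of 6 other alternative fits either (up to 0.208). The differences for CDKN1A (0.57, adjusted p = 0.479), MDM2 (−0.19), XIAP (−0.16), VEGFA (0.07) and SIRT1 (−0.03) did not pass. Species, mouse strain, age, immune state, ganciclovir and transplantation, shRNA, read length and cell makeup all differ between the sets and cannot be told apart.

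The pathways around the members were described by lists of related genes. Over all genes tested, 7.87% were called lower and 3.6% higher in humanized mouse livers. In WT mouse livers 6.94% were lower and 9.09% higher. Groups were free of overlap for 7.16% and 2.49% of all genes. The list counts below are small and are to be read beside these shares. The shares are of all livers, and leaving out livers changed the number of genes called. Without both alike humanized livers 2011 genes were called (28.5% of them higher), against 1461 with all livers. Without both WT livers that stand apart 3499 were called (66.4% of them higher), against 2418. Around cyclin D1, 14 of 16 G1 genes were tested in each set. In humanized mouse livers RBL1 was higher (0.61, and 0.60 without both alike livers, where it no longer passed) and CDKN2B, an inhibitor of CDK4 and CDK6, lower (0.509 ± 0.387 against 2.04 ± 1.09 TPM, −0.98). Where Ccnd1 was lower, in WT mouse livers, Ccnd3, another D-type cyclin, was higher in all 6 knockdown livers than in every control (15.5 ± 1.05 against 12.1 ± 1.48 TPM, log2 fold change 0.33, limma adjusted p = 0.0774). Cdk4, the kinase that D-type cyclins activate, was higher too (0.23), and Rb1, which cyclin D kinases phosphorylate, was lower (6.19 ± 0.833 against 7.64 ± 0.539 TPM, −0.27). Ccnd2 (−0.19), Cdkn1b (−0.06) and, in humanized mouse livers, CCND3 (−0.18) and CDKN1B (0.07) did not pass.

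Around BCL2 and XIAP, 1 of 11 BCL2 family genes was called in humanized mouse livers and 1 of 13 in WT, each lower. They were BID, which links caspase-8 to mitochondria (9.39 ± 2.15 against 17.3 ± 3.03 TPM, −0.83, limma adjusted p = 0.124), and Pmaip1, a BH3-only gene (−0.45). Without WT LacZ replicate 2 and WT HuR KD replicate 6 Pmaip1 was −0.25 and no longer passed. BCL2L1 (−0.26 and −0.16) and MCL1 (−0.17 and −0.14) had values below 0 in humanized and WT mouse livers and passed in neither with all livers. MCL1 passed without both alike livers (−0.34). BCL2L1 passed without Humanized HuR KD replicate 4 (−0.40) but not without both alike livers (−0.33). Of the IAP genes, their antagonists and caspases, 1 of 10 was called in humanized mouse livers, the caspase CASP6 (−0.66), which was lower. That call held in 2 of 8 fits that left out 1 liver and in 5 of 12 other alternative fits. Among the fits that lost it were median-of-ratios factors, quantile normalization and voom (−0.59, −0.59 and −0.56). Without both alike livers 2 of 10 in that list were lower. In WT, where 11 were tested, Xaf1 (−0.62) was lower and Htra2 (0.22) higher.

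Around HIF1A and VEGFA, 0 of 6 HIF subunits and oxygen sensors passed in humanized mouse livers (limma, unadjusted p), EPAS1 having a log2 fold change of 0.04. In WT mouse livers 1 of 7 did, Hif1an, which encodes an asparagine hydroxylase of HIF (9.72 ± 1.52 against 7.43 ± 0.966 TPM, 0.34), and Egln3 (0.25) and Epas1 (−0.01) did not. Of the HIF target genes 1 of 12 was lower in humanized mouse livers, P4HA2 (−0.70), and 2 of 14 in WT, the glycolytic genes Pfkfb3 (−0.38) and Hk2 (−0.29), with 0 higher in either set. Of all genes, 7.87% were lower in humanized and 6.94% in WT mouse livers. Without both alike livers 4 of 11 HIF target genes were lower in humanized mouse livers. That fit called 2011 genes in all, against 1461 with all livers. Without both WT livers that stand apart Hk2 was −0.23 and no longer passed. P4HA2 kept its call in 4 of 8 fits that left out 1 liver and in 8 of 11 other alternative fits. Voom (−0.55) was among those that lost it. Of VEGF ligands and receptors NRP1, a coreceptor, was lower in humanized mouse livers (4.24 ± 0.259 against 7.99 ± 2.35 TPM, −0.74), where 2 of 9 could be tested, and 0 of 8 passed in WT. VEGFB had log2 fold changes of −0.15 and, in WT, 0.04.

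Of sirtuins and partners of SIRT1, SIRT5, a mitochondrial desuccinylase, was higher in humanized mouse livers (14.2 ± 2.98 against 7.26 ± 1.74 TPM, 0.89, limma adjusted p = 0.104), with all knockdown livers above all controls, as for 2.13% of all genes. NAMPT, the enzyme that makes the NAD precursor, was lower in both sets, with 7.67 ± 3.95 against 11.6 ± 1.61 TPM in humanized (−0.63) and 40.7 ± 4.66 against 61.7 ± 12.6 TPM in WT mouse livers (−0.57, limma adjusted p = 0.0573). The humanized NAMPT call held in 1 of 8 fits that left out 1 liver and in 4 of 12 other alternative fits. Among the fits that lost it were median-of-ratios factors, quantile normalization and voom (−0.56, −0.56 and −0.49). Sirt4 was lower in WT (−0.24), and the calls were 1 higher and 1 lower of 11, and 0 higher and 2 lower of 12. Without both alike livers they were 1 higher and 2 lower of 11. Without both WT livers that stand apart they were 1 higher and 4 lower of 12. Of 13 other mRNAs known as bound by HuR, HuR itself and PTMA (60.9 ± 5.67 against 84.7 ± 17.3 TPM, −0.45) were lower among 9 tested in humanized mouse livers, and HuR alone among 10 in WT. Without both alike livers 3 of 9 were lower, and without both WT livers that stand apart 2 of 10. HuR, whose mRNA the shRNA targets, is among the genes counted as lower in every one of these counts.

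Of the list genes named as called, HuR apart, 3 of 9 in humanized mouse livers kept an unadjusted p under 0.05 whichever liver was left out (BID, NRP1 and SIRT5), and 10 of 11 in WT (Ccnd3, Cdk4, Hif1an, Htra2, Nampt, Pfkfb3, Pmaip1, Rb1, Sirt4 and Xaf1). The others lost it without at least 1 liver. With all livers and limma on TPM, none of these genes had an adjusted p under 0.05, whereas NRP1, SIRT5, Ccnd3, Cdk4, Nampt and Xaf1 did in at least 1 alternative fit.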

How the data were processed

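RNA-seq libraries were strand-specific and paired-end, from total liver RNA. The authors aligned trimmed reads by HISAT2, using a joint index of both species for humanized mouse livers, counted by featureCounts (Subread) and deposited TPM (the labels also name Trim Galore, mm10 and GRCh38). The lengths behind TPM are not given in the sources used here. TPM of human genes sum to 1000000, so a large gene class shifts all others. Mitochondrial genes are listed at 0 in the WT table.

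Genes whose mean TPM in a set reached 1 were compared as log2(TPM + 1) with limma 3.58.1 in R 4.3.3 (lmFit, eBayes with trend). Calls used an unadjusted p under 0.05, with Benjamini-Hochberg adjusted p beside it. Fold changes on this scale understate those of low genes. Mean TPM were also compared by exact two-sided permutation over 70 (smallest p 0.0286) or 924 groupings (smallest 0.00216), with 8 members and HuR per set, unadjusted. Both sets entered 1 interaction fit. Whole reads per gene were recovered from the TPM spacing for 18702 human and 25110 mouse genes and gave depths and a voom alternative. Both steps were tested on simulated data.

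The members, lists and named genes (members, HuR, at most 3 called genes per list and direction, direct partners, and the 3 genes most correlated with the member of smallest p) were chosen with earlier results of these data known. Livers are separate mice. Equal replicate numbers did not pair them. The largest 3′ UTR per mouse gene came from GENCODE M21, where all 8 gene versions match the table. Human sequences were not used here, and 1 mRNA of the set and some related genes are not reported here. Alternatives chosen after seeing the data were TPM of protein-coding genes alone, voom without a filter, and leaving out livers that stand apart. Analyses used Python 3.11.15, numpy 2.4.6, pandas 2.3.3, scipy 1.17.1 and matplotlib 3.10.9. The unused columns of the tables hold annotation only.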

Additional observations from a re-analysis of the deposited data

Results flagged for a closer look

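Of 36 groups of livers checked (8 members and HuR in each group of each set), 2 had a liver far from the rest, where chance alone gives about 1 in 20 groups, or 1.8 of 36. Xiap was 28.6 TPM in WT HuR KD replicate 6, with the next lowest at 43.0 TPM, and Sirt1 was 5.67 TPM in the same liver, with the next lowest at 8.30 TPM. That liver was the lowest of its group for 4 of the 7 members tested and below its group mean for 6 of 7, and it had the fewest reads of its group. What part its depth has in these values was not tested. The HuR KD effect on CCND1 differed between humanized and WT mouse livers by 1.01 on the log2 scale (limma interaction, adjusted p = 0.0149), being 0.58 in the former and −0.43 in the latter.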

How the results depend on the processing

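Ccnd1 in WT mouse livers stayed under an unadjusted p of 0.05 in each alternative fit, though its adjusted p did not pass. The CCND1 difference between the sets stayed under an adjusted p of 0.05 in each alternative run for it. For the differences, voom, TPM without mitochondrial genes and TPM of protein-coding genes alone were not run. With an adjusted p under 0.05 27 genes were called for humanized mouse livers and 134 for WT, 0 of them members. A mean TPM of at least 5 gave 931 genes in humanized mouse livers. Leaving out 1 liver gave 0 to 4 members for humanized (with all livers 3) and 1 to 2 for WT (with all livers 1), and 283 to 835 pairs that differed between the sets (with all livers 411), which was 630 without Humanized HuR KD replicate 4 and 835 without Humanized LacZ replicate 2. Without both it was 967 pairs. In humanized mouse livers 2 members were called with median-of-ratios factors, quantile normalization, voom or the replicate number as a block. It was also 2 with mitochondrial genes left out of the TPM and with TPM of protein-coding genes alone. In WT mouse livers 2 members were called with median-of-ratios factors, with quantile normalization or without WT LacZ replicate 2 and WT HuR KD replicate 6.

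No called member changed sign, and signs reversed for the values below. SIRT1 was 0.021 (median-of-ratios), 0.027 (quantile), 0.055 (voom), 0.030 (protein-coding TPM) and 0.054 (voom, no filter) in humanized mouse livers. Sirt1 was 0.031 with voom, 0.028 with voom and no filter and 0.083 without both WT livers that stand apart, and Epas1 0.037, 0.034 and 0.00069, and 0.00188 with protein-coding TPM. Cdkn1b was 0.040 without both. The SIRT1 difference between the sets was 0.046 (median-of-ratios) and 0.040 (quantile). Without both alike humanized livers VEGFA was −0.088 and its difference −0.035. With 1 liver left out, the ranges of values that crossed 0 were −0.18 to 0.17 (SIRT1), −0.057 to 0.12 (VEGFA), −0.35 to 0.031 (VEGFB), −0.30 to 0.11 (CCND3), −0.021 to 0.13 (CDKN1B), −0.00083 to 0.080 (EPAS1) in humanized mouse livers, −0.046 to 0.089 (Sirt1), −0.012 to 0.16 (Xiap), −0.070 to 0.062 (Epas1), −0.096 to 0.039 (Cdkn1b), −0.029 to 0.19 (Vegfb) in WT, and −0.17 to 0.18 (SIRT1) and −0.0047 to 0.17 (VEGFA) for the differences. The cause was not tested.

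The labels number replicates in each group, but same-numbered livers did not deviate together (r from −0.249 to 0.137 and from −0.142 to 0.206). With the number as a replicate block 1401 and 2242 genes were called, 0 and 17 after adjustment, and HIF1A was the only call lost among 61 results. BCL2 rested on 8 to 111 reads per humanized and Bcl2 on 3 to 157 per WT mouse liver, which limits both.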
